A study of Homo sapiens with 7 samples.

Results

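Mutant reporter constructs in which a cytosine and a guanine change places, C to G or G to C as named on the reference strand, were described against every other single-base substitution of the same assay. Members were chosen from the construct names of the authors' deposited table, whose last fields give the reference and alternate allele, by a rule that uses no measured value, although the rule was set with earlier results of these data known. There were 77 such constructs among 879 single-base substitutions and 1025 mutants in all, 40 named C to G and 37 named G to C. They fell in 67 regions on 20 chromosomes. Their sequences came from a lentiviral massively parallel reporter assay (lentiMPRA) of candidate regulatory regions in C4-2B, an established cell line of human prostate cancer from the LNCaP lineage. The cells carried the library and no other treatment named in the labels. Genomic DNA (gDNA) and RNA were taken from the same cells 48 hours after transduction, as 3 gDNA and 3 RNA libraries, and 1 further library linked barcodes to sequences. A reporter read 48 hours after transduction in 1 cell line gives the activity of a sequence beside the reporter's own promoter and not at its place in the genome. Expression of the cells' own genes was not analysed here, so the identity of the line was not checked against markers.

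In a lentiMPRA each candidate sequence drives a transcript that carries a barcode, and the barcode's share in RNA is read against its share in gDNA. Regulatory sequences act through short motifs bound by transcription factors, and a changed base can weaken a motif, strengthen it or create another. An exchange of cytosine for guanine turns a base pair around, so it keeps the G+C content of the sequence while it swaps a purine for a pyrimidine. It can also make or remove a CpG dinucleotide, the main target of DNA methylation in human cells. Both names describe the same exchange, seen from opposite strands.

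For 1 member, in a region beside IFI27L2, a relative of the interferon-induced gene IFI27, the tested base lay in a promoter window held in the RefSeq sequences used here (GRCh38.p14, 250 bases before to 50 after the gene's start). That window is shown because it is the reference sequence around a member with a precise estimate near 0, and its capitals mark the bases that belong to the tested region, with the minus strand at chr14:94129555-94129854 written 5′ to 3′.
IFI27L2 promoter window: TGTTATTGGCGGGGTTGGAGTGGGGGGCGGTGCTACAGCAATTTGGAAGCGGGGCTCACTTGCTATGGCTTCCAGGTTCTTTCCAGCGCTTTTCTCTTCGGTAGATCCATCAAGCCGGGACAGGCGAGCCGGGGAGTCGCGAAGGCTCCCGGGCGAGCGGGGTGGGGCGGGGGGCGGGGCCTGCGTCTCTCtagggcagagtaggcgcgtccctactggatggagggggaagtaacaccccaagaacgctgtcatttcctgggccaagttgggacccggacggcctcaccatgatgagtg
The IFI27L2 window had a G+C content of 63.3% and 21 CpG dinucleotides, of which 16 lay in the 191 bases of the tested region. Over 35116 such windows the median G+C content was 58.7% and the median number of CpG dinucleotides was 14. The IFI27L2 member stood at -0.04 ± 0.08 per the authors' deposited table, without a call. Its 95% normal interval ran from -0.19 to 0.11 on the natural log scale. Across all mutants, the reference allele matched the base in such a window in 26 of 26 comparisons, made for 16 constructs. The only other window that overlapped a member's region, at APLP1, shared 4 bases with it and held no tested base of a member. Sequence at the tested bases of the other members was not analysed here.

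Each estimate is taken here as the natural log of the odds ratio of RNA over gDNA for mutant against wild-type sequence, so that a value above 0 means more reporter RNA from the mutant. The figure after ± is the standard error that the estimate and its z value imply, and folds are estimates turned back from the log scale, without their sign. A construct is called where the authors' p-value, adjusted by Benjamini-Hochberg over all mutants, was under 0.05. The authors' model combined the replicates, so depth per construct is unknown and a p-value covers no more than that model's own error.

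Of the 77 C-G exchanges, 46 (59.7%) were called per the authors' deposited table, against 56.6% of all 1025 mutants. The called members comprised 22 that were higher than wild-type and 24 that were lower, and 31 were not called. Over all mutants 29.5% were called higher and 27.1% lower. Among the 802 other single-base substitutions 450 (56.1%) were called, 240 higher and 210 lower. Higher calls thus made up 47.8% of the members' calls (95% exact Clopper-Pearson interval 32.9 to 63.1%) and 53.3% of the calls of the other substitutions. Members of 1 region are not independent, so this interval is too narrow. The share of members called lay near the background and is not a result about C-G exchanges.

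The size of the effects was also close to that of other substitutions. The median estimate, taken without its sign, was 0.31 for the 77 members, or 1.37-fold, with quartiles of 0.16 and 0.79. The 802 other single-base substitutions had a median of 0.30, or 1.35-fold, with quartiles of 0.13 and 0.63. Among called constructs alone the median was 0.61 for the 46 members, or 1.83-fold, and 0.52 for the 450 others, or 1.69-fold. Called members that were higher had a median size of 0.48, and called members that were lower one of 0.68. The corresponding medians of the other substitutions were 0.51 and 0.54.

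The signed estimates of the members centred on 0.04, and those of the other substitutions on 0.03. The robust SD, a scaled median absolute deviation, was 0.45 for both groups. With the estimates beyond 10 in size left out, the SD was 0.64 over 76 members and 0.70 over 790 other substitutions. Such estimates came with very large standard errors, and none was called. The one among the members, in a region 1771 bp from PGGHG, stood at 18.9 ± 948 per the authors' deposited table. Its value carries no usable size.

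By size, 31 members (40.3%) lay within 0.25 of 0, and 6 of them were called per the authors' deposited table. A further 19 lay from 0.25 to 0.5, of which 14 were called, and 17 lay from 0.5 to 1, all of them called. Above that, 8 members lay from 1 to 2 and 1 from 2 to 10, and all 9 were called. Other substitutions were called in 22.8% of cases within 0.25 of 0, 71.9% from 0.25 to 0.5, 93.8% from 0.5 to 1 and 98.4% from 1 to 2, so the members' shares lay near the background. Of the other substitutions with a size up to 10, 10.9% exceeded 1 and 2.78% exceeded 2, against 11.8% and 1.32% of the members. The called members reached from -1.67 to 2.10 per the authors' deposited table, and the called other substitutions from -3.77 to 4.13. Beyond the members' ends lay 11 higher and 12 lower calls of other substitutions. With 77 members against 802, the ends of the 2 groups are drawn from groups of very unequal size.

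Set beside each other, the classes of substitution differed little in their share of calls per the authors' deposited table. It was 55.4% for the 74 C-to-A or G-to-T changes, 55.3% for the 208 C-to-T or G-to-A changes, 57.5% for the 322 T-to-C or A-to-G changes and 55.1% for the 198 transversions at A or T. The median size was 0.38 for C-to-A or G-to-T, 0.31 for C-to-T or G-to-A, 0.32 for T-to-C or A-to-G and 0.25 for transversions at A or T. The members' median of 0.31 fell inside this range. The median standard error was 0.11 for the members and ran from 0.10 to 0.13 over the other classes. No class stood apart in its median error.

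Read by name, the calls of the 2 directions of the exchange leaned opposite ways. Constructs named C to G had 14 higher and 8 lower calls among 40, and those named G to C had 8 higher and 16 lower calls among 37, per the authors' deposited table. Their median estimates were 0.09 and -0.04. Called or not, 24 C-to-G estimates lay above 0 and 16 below, against 18 and 19 of the G-to-C estimates. Called C-to-G constructs had a median size of 0.33 where higher and 0.99 where lower. Called G-to-C constructs had 0.82 where higher and 0.46 where lower. The names refer to the reference strand, and the strand on which each gene or reporter is read did not enter the naming. This difference was not tested, and no other class was split by name to set beside it.

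Among called members, the highest estimate belonged to the member inside TIMELESS, a gene of the replication fork protection complex, at 2.10 ± 0.54 per the authors' deposited table, or 8.13-fold (chr12:56447920-56449062, adjusted p = 0.00033). The only other mutant of the TIMELESS region was called lower, at -0.67. Next came a member of a region 5001 bp from RRM2, which encodes a subunit of ribonucleotide reductase. It stood at 1.25 ± 0.38 per the authors' deposited table, or 3.48-fold (chr2:10117354-10117567, adjusted p = 0.00249). The other mutant of the RRM2 region was called lower, at -1.90. In both regions the C-G exchange and the other mutant therefore had opposite signs against wild-type sequence. The TIMELESS region held separate wild-type constructs for different exchanges, at -1.73 and -2.50 against scrambled sequence per the authors' deposited table. Mutants of a region may therefore have been set against different wild-type constructs. Which one each mutant here was set against is not known.

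A member of the region inside ARMH3 stood at 1.18 ± 0.33 per the authors' deposited table, or 3.25-fold (chr10:101960279-101963301, adjusted p = 0.000828). The other ARMH3 mutant was called higher too, at 0.60. A region 1865 bp from HNRNPR, which encodes a nuclear RNA-binding protein, held a further member. It reached 1.09 ± 0.11, a 2.98-fold rise of odds, per the authors' deposited table (chr1:23346149-23349256, adjusted p = 4.26e-20). The HNRNPR region held 10 other mutants, of which 2 were called higher and 1 lower, from -0.17 to 1.12. Its member was thus second in size in a region with calls of both signs.

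Precise higher calls also came from 3 further regions. The first of these regions lay 1868 bp from CPT1B, the muscle form of carnitine palmitoyltransferase. Its member stood at 0.91 ± 0.09 per the authors' deposited table, or 2.48-fold (chr22:50566862-50566993, adjusted p = 3.43e-20). A member inside JPH3, which encodes a junctophilin of excitable cells, stood at 0.82 ± 0.09, or 2.26-fold, per the authors' deposited table (chr16:87680996-87681709, adjusted p = 3.43e-20). A member inside the nuclear pore gene POM121 stood at 0.83 ± 0.12, or 2.29-fold, per the authors' deposited table (chr7:72922419-72924066, adjusted p = 2.14e-11). Each of these members was the largest in size among the mutants of its region.

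Members inside SCN2A, a neuronal sodium channel gene, and MRTFB, which encodes a coactivator of serum response factor, were the only mutants of their regions. The SCN2A member stood at 0.85 ± 0.24 per the authors' deposited table, or 2.33-fold (chr2:165369091-165370085, adjusted p = 0.00116). The MRTFB member stood at 0.82 ± 0.22 per the authors' deposited table, or 2.27-fold (chr16:14020331-14020482, adjusted p = 0.000406). A member inside AJAP1, an adherens junction gene, was smaller, at 0.33 ± 0.09 per the authors' deposited table (adjusted p = 0.000753). Of the 3 other AJAP1 mutants, 1 was called lower.

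At the low end, a member inside VEGFB, which encodes a growth factor of the vascular endothelial family, had the lowest estimate, at -1.67 ± 0.40 per the authors' deposited table, 5.33-fold below wild-type (chr11:64236730-64238336, adjusted p = 0.000122). The 2 other VEGFB mutants lay between -0.43 and 0.18, and 1 of them was called lower. The only mutant of a region 987 bp from RNF39 was a member. It stood at -1.24 ± 0.26 per the authors' deposited table, or 3.44-fold lower (chr6:30076756-30080828, adjusted p = 6.74e-06).

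The smallest adjusted p among the members belonged to a construct of a region inside DIP2C, at -0.99 ± 0.07 per the authors' deposited table, or 2.69-fold lower (chr10:436482-436669, adjusted p = 2.25e-42). The 2 other mutants of this DIP2C region were also called lower, at -0.29 and -0.26. In a second DIP2C region a member stood at 0.16 ± 0.06 per the authors' deposited table and was called higher (chr10:505128-506101, adjusted p = 0.0192).

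A member 320 bp from EIF1AX, which encodes a translation initiation factor, stood at -0.67 ± 0.09 per the authors' deposited table, or 1.95-fold lower (chrX:20142158-20142435, adjusted p = 1.74e-11). A member of the region over an end of CDC42EP5, the gene of a CDC42 effector, stood at -0.72 ± 0.12 per the authors' deposited table, or 2.06-fold lower (chr19:54473266-54478264, adjusted p = 3.87e-08). None of the 5 other CDC42EP5 mutants was called. A member inside GPR137B, a lysosomal membrane protein gene, stood at -0.53 ± 0.09 per the authors' deposited table (chr1:236156114-236157348, adjusted p = 9.66e-08). It was the only mutant of its region, as was the member of a region 6868 bp from SNX6, a sorting nexin gene. The SNX6 member stood at -0.51 ± 0.14 per the authors' deposited table (adjusted p = 0.00126).

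Further members among the 15 lowest calls had wider errors. In the authors' deposited table, the member over an end of MEFV, the gene of the inflammasome protein pyrin, stood at -0.99 ± 0.29 (adjusted p = 0.00151). The member inside JHY stood at -0.94 ± 0.20 per the authors' deposited table (adjusted p = 1.49e-05). A UCKL1 member, in a uridine kinase family gene, stood at -0.88 ± 0.21 per the authors' deposited table (adjusted p = 9.06e-05). Their regions held 4, 1 and 2 other mutants, of which 1, 0 and 1 were called lower and none higher. Inside PTRH2, a mitochondrial peptidyl-tRNA hydrolase gene, a member stood at -0.79 ± 0.25 per the authors' deposited table (adjusted p = 0.00425). Inside TDRD9, a gene of the piRNA pathway, another stood at -0.69 ± 0.22 per the authors' deposited table (adjusted p = 0.00429). The PTRH2 and TDRD9 regions held other mutants called in each direction.

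In 9 regions 2 or 3 members were tested, 19 members in all, which gave 11 pairs of members within a region. The tested bases of 7 pairs lay within 200 bp of each other, so their constructs may overlap, and no site carried a second alternate allele. Both members were called in 5 of the 11 pairs, and in all 5 they had the same sign. Called or not, 8 of the 11 pairs had the same sign. No share over pairs of other substitutions is set beside these counts, so they are not a result about members. Where both members of a pair had a wild-type value against scrambled sequence, the values differed. At NDRG1, for example, they were -0.74 and -0.38 per the authors' deposited table. Members of a region share sequence, so these pairs are not independent replicates.

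Inside NDRG1, an androgen-responsive gene, the members stood at 0.31 ± 0.06 and 0.34 ± 0.06 per the authors' deposited table, or 1.37- and 1.40-fold (chr8:133252343-133253812, adjusted p = 4.72e-07 and 2.3e-08). These were the only called mutants among the 5 of the NDRG1 region. The members inside NRG1, which encodes a ligand of ERBB receptors, stood at -1.56 ± 0.34 and -1.06 ± 0.44 per the authors' deposited table, or 4.74- and 2.88-fold lower (chr8:32258967-32261520, adjusted p = 1.55e-05 and 0.03). Other mutants of the NRG1 region reached up to 4.13. Both NRG1 members thus lay below wild-type in a region with a high call as well.

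Inside KIAA1671 the members stood at 0.40 ± 0.10 and 0.55 ± 0.17 per the authors' deposited table (chr22:24999228-24999953, adjusted p = 0.000164 and 0.00267). A second POM121 member stood at 0.17 ± 0.07 per the authors' deposited table, or 1.19-fold (adjusted p = 0.0192). The members inside UNC13A, a synaptic vesicle priming gene, stood at -0.26 ± 0.11 and -0.17 ± 0.07 per the authors' deposited table (chr19:17613723-17613857, adjusted p = 0.0367 and 0.0201). The UNC13A region held 1 more mutant, which was called lower as well, at -1.02. All 3 UNC13A mutants therefore lay below wild-type.

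In the other regions with several members, 1 member was called and the rest were not. Inside LIMA1, the gene of an actin-binding protein, one member stood at 0.67 ± 0.14 per the authors' deposited table (chr12:50189761-50190259, adjusted p = 1.28e-05), whereas a second at 0.18 ± 0.12 was not called. In a region 2344 bp from SLC6A19, a neutral amino acid transporter gene, one member stood at 0.42 ± 0.13 per the authors' deposited table (adjusted p = 0.00356). A second at 0.10 ± 0.06 was not called. Within INPP5A, an inositol polyphosphate phosphatase gene, members stood at -0.04 ± 0.04, 0.09 ± 0.07 and 0.27 ± 0.07 per the authors' deposited table, of which the last was called (chr10:132597739-132597977, adjusted p = 0.000304). By F11R, a tight junction gene, one member 282 bp away stood at -0.37 ± 0.08 per the authors' deposited table and was called lower (chr1:161021434-161026093, adjusted p = 9.62e-06). The other F11R member, at 0.15 ± 0.27 per the authors' deposited table, was not called, and its error was over 3 times that of the first.

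Compared within regions, 61 members shared 53 regions with 182 other single-base substitutions. In these regions 39 members (63.9%) and 95 other substitutions (52.2%) were called per the authors' deposited table. The median size over regions was 0.32 for members and 0.27 for other substitutions, and the members' median was the larger in 30 of 53 regions and the smaller in 23. The other substitutions of the remaining regions were called in 57.3% of cases. These shares were not tested against each other.

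By location, 50 members (64.9%) lay in regions inside a protein-coding gene, 23 in intergenic regions and 4 in regions over a gene end. Of the other single-base substitutions 50.1% lay inside a gene. Members inside a gene were called in 32 of 50 cases, 16 higher and 16 lower, and intergenic ones in 11 of 23, 5 higher and 6 lower, per the authors' deposited table. Other substitutions were called in 60.0% of cases inside a gene and 52.1% of intergenic cases. The higher share of calls inside genes was thus present in members and in other substitutions alike. Whether a tested base lay in an exon, an intron or an untranslated region was not resolved with the gene table used here.

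The regions of the members ran from 53 to 9597 bp, with a median of 978 bp, against 835 bp for the other substitutions. Members of regions up to the median length of 924.5 bp were called in 23 of 36 cases, and those of longer regions in 23 of 41, per the authors' deposited table. Other substitutions were called in 56.0% and 56.2% of cases. By place within the region, members nearer the edge were called in 23 of 41 cases and those nearer the middle in 23 of 36, against 53.9% and 58.3% of other substitutions. Of the 11 members that were the only mutant of their region 6 were called, of 39 in regions with 2 to 4 mutants 22, and of 27 in regions with 5 or more 18. The shares of other substitutions called were 49.5%, 53.6% and 60.5%. Higher and lower calls numbered 2 and 4 in the first of these groups, 9 and 13 in the second, and 11 and 7 in the last. For other substitutions they numbered 30 and 18, 96 and 92, and 114 and 100, so higher calls were the more numerous in each group. None of these splits was tested.

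Sizes were largest where standard errors were largest. Members in the lowest quartile of standard errors over all mutants (up to 0.08) had a median size of 0.17 and 10 of 18 (55.6%) were called per the authors' deposited table. Of the other substitutions in that lowest quartile, 126 of 207 (60.9%) were called, with a median size of 0.15. Members in the highest quartile (above 0.20) had a median size of 0.91 and 14 of 20 (70.0%) were called. In that highest quartile 97 of 188 other substitutions (51.6%) were called, with a median size of 0.74. Large estimates therefore came with large errors in both groups.

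Some uncalled members had small standard errors. The intervals given here cover only the model's error, and z spread more widely than that error alone would give. The member inside CUX1, a homeobox gene, had the smallest standard error, at 0.07 ± 0.04 per the authors' deposited table, with a 95% interval from -0.01 to 0.14 (chr7:101855158-101859999). A member of a region 8010 bp from FAM91A1 stood at 0.08 ± 0.05 per the authors' deposited table. Its interval ran from -0.01 to 0.17. By contrast, the called member inside NEU4, a sialidase gene, stood at 0.22 ± 0.04 per the authors' deposited table (chr2:241813915-241814062, adjusted p = 5.45e-06). The member inside ZNF528, a zinc finger gene, stood at 0.08 ± 0.07 per the authors' deposited table, without a call.

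At the edge of the call, members inside UBASH3A, a T-cell signalling gene, and of a region 197579 bp from PRSS58 were the last inside. They stood at -0.37 ± 0.17 and 0.20 ± 0.08 per the authors' deposited table (adjusted p = 0.0466 and 0.0369). First outside were a member of a region 3631 bp from HNRNPF, which encodes a splicing regulator, and one inside RNF41, a ubiquitin ligase gene. They stood at 0.47 ± 0.22 and 0.20 ± 0.10 per the authors' deposited table (adjusted p = 0.061 and 0.068).

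A further 6 called members, at C17orf75, LMF1, BID, APLP1, CIAO3 and MCCC1, lay between -0.41 and 0.29 per the authors' deposited table. Of these, only the member over an end of MCCC1, a gene of leucine breakdown, was called higher. The one at BID, a gene of apoptosis, stood at -0.32 ± 0.10 per the authors' deposited table. Uncalled members not described by name lay between -0.34 and 0.26.

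Over the gene lists, the androgen receptor and prostate lineage list held 2 members, those at NDRG1, both called higher. Of the 10 mutants of that list 3 were called higher and 2 lower per the authors' deposited table. The list of cell adhesion and junction genes held the 2 F11R members, 1 called lower and 1 not called, among 13 mutants with 4 higher and 4 lower calls. The zinc finger list held 1 member, at ZNF528, not called, among 29 mutants with 12 higher and 6 lower calls. The neuroendocrine, splicing, and autophagy and lysosome lists held 0 members. Each list holds only some genes of its kind, and HNRNPF and AJAP1, for example, stood on none. With 0 to 2 members a list, no direction can be read from them.

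The wild-type counterparts of 31 members, in 25 regions, had a row per the authors' deposited table of wild-type against scrambled sequence. Of these, 22 were called, 12 higher and 10 lower, a share of 71.0% against 62.3% of all 358 wild-type constructs. Over all wild-type constructs 34.1% were called higher and 28.2% lower. The median size was 0.41 for the 31 counterparts and 0.34 for all wild-type constructs. Both tables use wild-type reads, on opposite sides of the comparison. Error in those reads would move the values of a member in the 2 tables in opposite directions. The values are therefore not independent and are only set side by side.

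The members with the largest wild-type values were at UBASH3A and UCKL1. The UBASH3A wild-type stood at 2.98 ± 0.75 over scrambled sequence per the authors' deposited table, beside the mutant's -0.37 ± 0.17. The UCKL1 wild-type stood at 2.74 ± 0.66 per the authors' deposited table, beside -0.88 ± 0.21. At VEGFB the wild-type was called higher at 0.83 ± 0.11 per the authors' deposited table, beside the lowest member at -1.67 ± 0.40. In these 3 regions the wild-type lay above scrambled sequence and the mutant below wild-type.

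Wild-type sequences called below scrambled sequence included that at TIMELESS, at -1.73 ± 0.51 per the authors' deposited table, beside the highest called member at 2.10 ± 0.54. At LIMA1 the wild-type stood at -1.05 ± 0.13 per the authors' deposited table, beside the called mutant at 0.67 ± 0.14. At HNRNPR it stood at -0.80 ± 0.11 per the authors' deposited table, beside the mutant at 1.09 ± 0.11. Here the wild-type lay below scrambled sequence and the mutant above wild-type.

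Other members showed other combinations. At CDC42EP5 the wild-type was called lower at -0.36 ± 0.09 per the authors' deposited table, and the mutant lay lower still, at -0.72 ± 0.12. At AJAP1 the wild-type was called higher at 0.37 ± 0.11 per the authors' deposited table, beside a mutant at 0.33 ± 0.09. At EIF1AX and JPH3 the wild-type was not called, at 0.06 ± 0.06 and -0.07 ± 0.09 per the authors' deposited table, beside mutants called at -0.67 ± 0.09 and 0.82 ± 0.09. At DNAH12, a dynein heavy chain gene, the wild-type was called lower at -0.99 ± 0.12 per the authors' deposited table, while the mutant at -0.26 ± 0.27 was not called.

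Over all mutants of the authors' deposited table, z had a robust SD of 3.92 where errors alone would give 1. This spread includes any true effects of the mutants as well as error, so scaling by it is strict. With z divided by that spread, 0 members and 0.195% of all mutants were called, and 5 members had an unadjusted p under 0.05. The smallest adjusted p among the members was then 0.0874, at DIP2C. A threshold of 0.01 on the authors' adjusted p kept 38 members and 48.0% of all mutants. Bonferroni adjustment kept 19 members, 8 higher and 11 lower, or 24.7% of members against 29.9% of all mutants. Among the members named by rule it ended the calls at TIMELESS, RRM2, ARMH3, SCN2A, MRTFB, AJAP1, SNX6, MEFV, PTRH2, TDRD9, UBASH3A, PRSS58, KIAA1671, UNC13A, SLC6A19 and INPP5A. It also ended that of the smaller member at NRG1 and at POM121. Of the 22 called wild-type counterparts, the threshold of 0.01 kept 20, Bonferroni adjustment 13 and scaled z 0, against 48.9%, 33.5% and 1.12% of all wild-type constructs.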

How the data were processed

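Candidate sequences were read in C4-2B cells as 3 gDNA and 3 RNA libraries with 1 association library. The submitters' processing notes list Bowtie2 and the build hg38 with no role. Further steps were not given in the sources used here. The authors' 2 deposited tables hold 1 natural log odds ratio per construct from a model that the file headers name logit, with replicates combined. The authors deposited the model's z value, a score, and a p-value and q-value for each construct. Recomputed here, p followed from z by a two-sided normal test, and q from p by Benjamini-Hochberg adjustment over the table. Which side of a comparison is higher was read from the tables' names alone.

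The members and the gene lists were chosen with earlier results of these data known. Regions are in hg38, with the start raised by 1 to count from 1. Genes came from RefSeq's GRCh38.p14 protein-coding genes, by overlap and otherwise by the nearest gene body. Distances run from the nearer end of the region to the gene body, not from the tested base. Promoter windows came from a RefSeq table that lacks many genes, so distance to a start site was not used. Named were the 15 highest and 15 lowest called members, the 10 smallest p, the 5 smallest and 5 largest standard errors, members of shared regions and of gene lists, those beyond 10 in size and those at the edge of the call. The members at the second DIP2C region, DNAH12, IFI27L2, C17orf75, LMF1, BID, APLP1, CIAO3 and MCCC1, and those in the closing observations, were named after their values were seen. No base position of a mutation is printed, and the values of some members are not reported here. Adjustment was tested on simulated data. Python 3.11.15, pandas 2.3.3, NumPy 2.4.6 and SciPy 1.17.1 were used. Alternatives were stricter thresholds, scaled z, 1 member per region, and leaving out extreme or imprecise estimates.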

Additional observations from a re-analysis of the deposited data

Results flagged for a closer look

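Of 35 wild-type constructs named for a C-G exchange, 31 had a mutant counterpart and 4 did not, so the latter lie outside the comparison with mutants. Of those 4, 3 differed from scrambled sequence at an adjusted p under 0.05, where 62.3% of all wild-type constructs did. In the authors' deposited table, a TIMELESS wild-type construct stood at -2.50 ± 0.47 (adjusted p = 4.22e-07). The authors' deposited table gave 1.36 ± 0.33 for an NRG1 wild-type construct (adjusted p = 0.000108). A wild-type construct 6868 bp from SNX6 stood at 0.80 ± 0.24 per the authors' deposited table (adjusted p = 0.00219). The one of a region 8694 bp from TNFSF10 was not called, at -0.32 ± 0.37.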

How the results depend on the processing

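With 46 of 77 members called, an adjusted p under 0.01 left 38 of 77, where 48.0% of all mutants stayed called. Taking 1 member per region left 38 of 67. Leaving out standard errors above the upper quartile left 32, as it dropped 20 members of which 14 were called. These omissions take members out, so their lower counts do not show that calls were lost. Bonferroni adjustment left 19 (24.7%), against 29.9% of all mutants. Scaled z left 0 (48 had an unadjusted p under 0.05 as deposited, 5 once scaled). C to G alone had 22 of 40, and G to C alone 24 of 37. Of 22 called wild-type counterparts, Bonferroni left 13 and scaled z 0 (unadjusted 22 as deposited, 3 once scaled). The share of higher calls ran from 42.1 to 53.1% under the other thresholds and omissions that left calls, and was 63.6% for C to G alone and 33.3% for G to C alone. The median size was 0.61 over called members alone, since small estimates are left out. The robust SD fell to 0.31 without large standard errors, which went with large estimates. Scaled z ended all 39 calls among the 50 named members, and the others named were not called as deposited. Bonferroni ended 20 of those 39 calls, and an adjusted p under 0.01 ended 6. No paired analysis was possible because the tables hold no values per replicate, and no replicate could be left out for the same reason. Depth per construct is unknown.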

Other observations

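Some C-G exchanges that were not called lay in regions where another mutant was. With 56.6% of all mutants called, this is common, and the examples were picked after their values were seen. Among called members with other mutants in their region, 34 of 40 also had another called mutant there. No such share over other substitutions is set beside this count, so it is not a result about members. The member inside FCHSD2, an endocytosis gene, stood at 0.16 ± 0.12 per the authors' deposited table, with a 95% interval from -0.08 to 0.39, while the other mutant of that region was called higher at 3.34. In a region 65606 bp from NEURL1B, a regulator of Notch ligands, the member stood at -0.13 ± 0.09 per the authors' deposited table. Another mutant of that region was called higher at 0.81. The member inside CUX1 stood beside a mutant called lower at -0.49. These differences between mutants of a region were not tested.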
